A study of Homo sapiens with 6 samples.

Results

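The 39 genes described here carry out homologous recombination, the Fanconi pathway of crosslink repair and the checkpoint signaling that goes with them. They were chosen by name and read from a table of deposited gene counts, in which all 39 had a row among 12499 genes, and all 39 passed the filter on low counts among 12462 genes tested. The table came from HaCaT cells, a spontaneously immortalized human keratinocyte line. Cells were infected for 48 h with a lentivirus, either one carrying the *ATF7* coding sequence (LV-ATF7, 3 libraries) or a negative control (LV-NC, 3 libraries), and were then kept in high glucose for 24 h. Both groups therefore received virus and high glucose, and neither factor varied within the comparison. The LV-ATF7 vector was a transgene plasmid with a puromycin marker, and the 3 replicates of each group share 1 cell line. No label says that replicates came from separate cultures, so p-values measure the spread between these libraries only.

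Homologous recombination copies an intact sister DNA to mend a double-strand break: nucleases trim the broken ends, BRCA1, BRCA2 and their partners prepare the exposed strand to pair with the intact copy, and helicases and nucleases separate the joined molecules. The Fanconi pathway unhooks crosslinks between DNA strands. Its core complex and the enzyme UBE2T attach ubiquitin to the FANCD2 and FANCI pair, which brings in the recombination proteins. Many of these genes are transcribed mostly in late G1 and S phase, when a sister DNA is being made, and keratinocytes that divide in the basal layer use them at replication forks.

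The promoters of 6 members are shown because these genes stand for the 3 patterns in the data: *EXO1* and *UBE2T* were among the largest falls in the LV-ATF7-labeled libraries, *PALB2* and *FANCF* were the largest rises, and *BLM* and *FANCD2* were among the genes with the lowest relative level in LV-NC replicate 1. Each sequence is the RefSeq window of GRCh38.p14 from 250 bases before to 50 bases after a transcript start, written along the strand of the gene. Capitals mark matches on either strand to the motifs searched: the cAMP response element (CRE) that ATF family factors recognize, in its whole form TGACGTCA or short form TGACGT; the E2F words TTTCGCGC, TTTGGCGC, TTTCCCGC and TTTGCCGC; the CCAAT box; the cell cycle homology region TTTGAA or TTCGAA; the ETS word CCGGAAG; and the NRF1 motif, which none of these 6 windows held. A match describes letters in the window and is not a measured binding site. The whole CRE holds the short form on both strands, and no other matches overlapped in the members' windows.
EXO1: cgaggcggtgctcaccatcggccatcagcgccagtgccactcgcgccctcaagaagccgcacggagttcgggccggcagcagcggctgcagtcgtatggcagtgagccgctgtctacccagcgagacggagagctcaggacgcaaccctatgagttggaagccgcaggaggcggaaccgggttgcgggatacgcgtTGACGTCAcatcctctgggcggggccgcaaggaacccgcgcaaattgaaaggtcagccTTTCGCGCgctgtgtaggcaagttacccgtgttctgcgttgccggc
UBE2T: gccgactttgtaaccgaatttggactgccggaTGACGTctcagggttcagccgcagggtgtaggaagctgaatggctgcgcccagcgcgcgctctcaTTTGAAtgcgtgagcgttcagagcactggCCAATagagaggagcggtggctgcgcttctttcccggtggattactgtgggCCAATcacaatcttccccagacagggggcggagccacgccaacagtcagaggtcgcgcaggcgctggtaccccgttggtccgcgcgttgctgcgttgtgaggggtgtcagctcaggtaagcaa
BLM: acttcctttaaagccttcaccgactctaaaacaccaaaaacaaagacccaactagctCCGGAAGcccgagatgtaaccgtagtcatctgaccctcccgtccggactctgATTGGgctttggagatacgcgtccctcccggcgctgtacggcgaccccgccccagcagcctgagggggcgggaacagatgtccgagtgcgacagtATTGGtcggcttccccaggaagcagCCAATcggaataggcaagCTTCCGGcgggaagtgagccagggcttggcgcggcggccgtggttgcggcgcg
FANCD2: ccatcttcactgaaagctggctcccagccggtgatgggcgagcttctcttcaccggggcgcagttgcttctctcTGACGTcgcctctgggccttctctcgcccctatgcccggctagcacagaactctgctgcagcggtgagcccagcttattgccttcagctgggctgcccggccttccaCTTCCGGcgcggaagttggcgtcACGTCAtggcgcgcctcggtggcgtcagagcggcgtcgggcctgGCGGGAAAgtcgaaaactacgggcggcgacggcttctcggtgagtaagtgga
PALB2: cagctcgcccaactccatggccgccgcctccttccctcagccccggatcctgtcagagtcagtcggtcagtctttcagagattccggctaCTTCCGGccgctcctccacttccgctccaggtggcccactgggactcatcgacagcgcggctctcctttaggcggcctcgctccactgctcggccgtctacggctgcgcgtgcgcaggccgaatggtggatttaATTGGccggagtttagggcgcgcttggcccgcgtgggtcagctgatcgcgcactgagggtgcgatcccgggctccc
FANCF: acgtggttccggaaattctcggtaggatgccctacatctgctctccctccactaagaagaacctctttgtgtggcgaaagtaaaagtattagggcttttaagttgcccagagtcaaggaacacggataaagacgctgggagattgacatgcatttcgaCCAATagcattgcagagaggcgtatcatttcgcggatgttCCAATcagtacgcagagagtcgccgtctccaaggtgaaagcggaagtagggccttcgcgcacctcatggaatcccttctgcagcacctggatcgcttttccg
The windows lie at chr1:241847954-241848253 on the plus strand for *EXO1*, chr1:202341887-202342186 on the minus strand for *UBE2T*, chr15:90717096-90717395 on the plus strand for *BLM*, chr3:10026187-10026486 on the plus strand for *FANCD2*, chr16:23641261-23641560 on the minus strand for *PALB2* and chr11:22625774-22626073 on the minus strand for *FANCF*. The *EXO1* window held a whole CRE 54 to 47 bases before the start and an E2F word 4 to 11 bases after it. *FANCD2* held an E2F word across its start, an ETS word and 2 short CREs. *BLM* had 3 CCAAT boxes and 2 ETS words, and *UBE2T* had 2 CCAAT boxes, a short CRE and a cell cycle homology region. *PALB2* and *FANCF*, which rose, had CCAAT boxes as well, 1 and 2 respectively, and *PALB2* an ETS word.

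Total counts were between 16686472 and 20562768 per library. *ATF7* itself went against the labels, at 50.6, 46.4 and 52.2 CPM (counts scaled to a common library total with edgeR's trimmed mean factors) in LV-NC replicates 1, 2 and 3 and 21.9, 25.7 and 27.98 CPM in LV-ATF7 replicates 1, 2 and 3, so that group is called the LV-ATF7-labeled libraries wherever a direction is drawn. Every direction below rests on the labels, and exchanging them would turn each rise into a fall and the 10 higher and 8 lower members into 8 and 10. Whether they match the libraries was not tested. All 16 keratinocyte markers searched for were measured, but *KRT14* was between 0.375 and 12.5 CPM, and *KRT5* ran from 99.96 to 355 CPM in LV-NC against 3215 to 3622 CPM in the LV-ATF7-labeled libraries. Summed over the 16 markers the levels were 2727 to 3704 CPM and 9495 to 10335 CPM. The markers did not all rise. In the test described below, 10 were higher in the LV-ATF7-labeled libraries, 2 were lower (*KRT14* and *DSC3*) and 4 were not called. All genes tested gave 34.7% higher and 32.9% lower. Without LV-NC replicate 1, the markers gave 11 higher and 5 lower, beside 39.9% and 40.2% of all genes. Among markers of other cell types, 6 of 23 were measured, with *CDH5* at 0.642, 3.72 and 4.86 against 81.05, 86.2 and 85.9 CPM, *CD14* at 1.61, 1.73 and 1.51 against 7.09, 7.85 and 9.57 CPM and *COL1A1* at 41.1, 33.1 and 35.8 against 15.1, 16.4 and 18.9 CPM. *DCN*, the other fibroblast gene, was at 1.66, 0 and 0 CPM against 2.18, 3.01 and 2.82 CPM (adjusted p = 0.0682), the endothelial gene *VWF* at 0.482, 1.21 and 0.637 against 3.57, 2.85 and 3.93 CPM and the melanocyte gene *PMEL* at 1.87, 2.20 and 2.08 against 4.07, 3.42 and 6.03 CPM. The part of these markers in the values below was not tested. LV-NC replicate 1 stood apart from replicates 2 and 3: the summed level of 24 S phase and G2/M markers was 1287 CPM in it, 4257 and 4245 CPM in the other two, and 2082 to 2134 CPM in the LV-ATF7-labeled libraries. *MKI67* was at 134, 721 and 812 CPM in LV-NC and 183, 192 and 162 CPM in the LV-ATF7-labeled libraries, and *TOP2A* at 111, 658 and 649 CPM and 204, 175 and 159.8 CPM. Calls that changed without that library, and the counts of each list without it, are given below. In bulk RNA, fewer dividing cells and less RNA of a gene per cell cannot be told apart.

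Between the groups, the members did not move together. *PALB2*, the bridge between BRCA1 and BRCA2, rose 2.64-fold and *FANCF*, a core complex subunit, 2.21-fold in the LV-ATF7-labeled libraries, while the nuclease gene *EXO1* fell 3.72-fold and *RAD51AP1*, which aids strand invasion, 3.02-fold. *BRCA1*, *BRCA2*, *FANCD2* and *FANCI*, the best known members, passed no threshold with all 6 libraries, and *BRCA1*, *FANCD2* and *FANCI* were called lower without LV-NC replicate 1. In the quasi-likelihood test of edgeR, with p-values adjusted by Benjamini-Hochberg over all genes tested and called under 0.05, 10 of 39 members (25.6%) were higher, beside 34.7% of the 12462 genes tested, and 8 (20.5%) were lower, beside 32.9%. In all, 18 members (46.2%) were called, beside 67.6% of all genes. The shares of 34.7% and 32.9% also stand beside the counts of each role and list given below for all 6 libraries. Beside the list counts without LV-NC replicate 1 stand 39.9% higher and 40.2% lower over all genes of that fit. The groups did not overlap for 19 members (48.7%), beside 72.7% of all genes. The median log2 fold change was -0.02 over the members and 0.00 over all genes tested. Scaling by library size alone, which shifted the median of all genes to -0.16, gave 8 members higher and 10 lower. The share of the members' calls that were higher was then 44.4% in place of 55.6%. Over all genes that share was 42.4% in place of 51.3%.

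**Figure D1:**
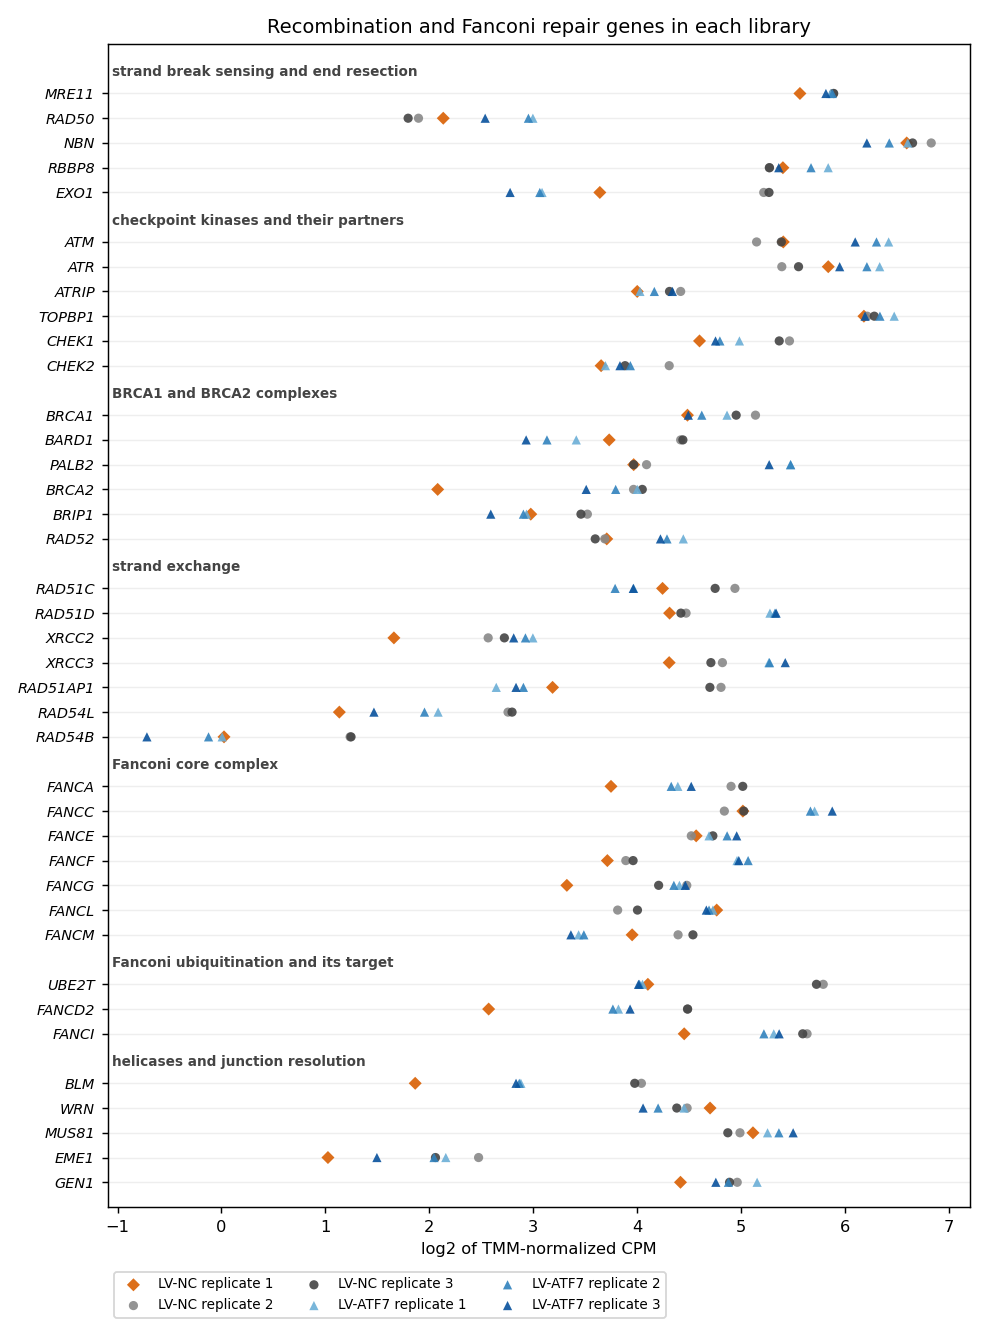
Level of each of the 39 members in each of the 6 libraries, as log2 of normalized CPM, grouped by role. Diamonds are LV-NC replicate 1, circles LV-NC replicates 2 and 3, and triangles the LV-ATF7-labeled libraries. The diamond is the lowest of the 6 points for 19 members, and the triangles lie to the right of all LV-NC points for *PALB2*, *FANCF* and *RAD51D*.

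Genes that sense a break and trim its ends came out mixed, with 1 of 5 higher and 1 of 5 lower. *EXO1*, the nuclease of long-range resection, had 12.47, 37.2 and 38.6 CPM in LV-NC replicates 1, 2 and 3 and 8.48, 8.36 and 6.86 CPM in the LV-ATF7-labeled libraries. All 3 of the latter were below every LV-NC library, with LV-NC replicate 1 nearer to them than to its own group. *EXO1* gave a log2 fold change of -1.89 ± 0.39 (SE, n = 3 per group; adjusted p = 0.00304), and -2.28 ± 0.12 without LV-NC replicate 1. *MRE11*, *RAD50* and *NBN* encode the MRN complex, which holds the broken ends and activates ATM. *MRE11*, its nuclease subunit, was at 47.4, 59.3 and 59.3 CPM and 58.1, 58.8 and 56.3 CPM, with overlapping groups and a log2 fold change of 0.06 ± 0.11 (adjusted p = 0.642). *RAD50*, the ATPase that tethers the ends, was at 4.39, 3.72 and 3.47 CPM in LV-NC and 7.98, 7.75 and 5.81 CPM in the LV-ATF7-labeled libraries. Its groups did not overlap, and the log2 fold change was 0.89 ± 0.19 (adjusted p = 0.00395), but 79.7% of its exon bases are shared with the annotation AC116366.3 on the same strand. *NBN*, the subunit that binds ATM, was at 96.6, 114 and 100.4 CPM and 97.2, 85.99 and 74.05 CPM. These groups overlapped by LV-ATF7 replicate 1 alone, and the log2 fold change of -0.27 ± 0.12 missed the threshold (adjusted p = 0.082). It passed without LV-ATF7 replicate 1 (adjusted p = 0.0460) or LV-NC replicate 1 (adjusted p = 0.00255). *RBBP8*, which starts resection together with MRN, ranged from 38.6 to 42.3 CPM in LV-NC and from 41.1 to 57.2 CPM in the LV-ATF7-labeled libraries, with an adjusted p of 0.0614. Its adjusted p was 0.0132 without LV-ATF7 replicate 3 and 0.00664 without LV-NC replicate 1.

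Both apical checkpoint kinases were higher in the LV-ATF7-labeled libraries, while *CHEK1*, *CHEK2*, *ATRIP* and *TOPBP1* did not pass the threshold. *ATM*, the kinase that responds to double-strand breaks, had 42.4, 35.49 and 41.9 CPM in LV-NC and 85.6, 78.96 and 68.52 CPM in the LV-ATF7-labeled libraries. Every one of the latter was above all LV-NC values, and the *ATM* log2 fold change was 0.96 ± 0.12 (adjusted p = 0.000224). *ATR*, the kinase that responds to single-stranded DNA at stalled forks, had 57.2, 41.99 and 46.9 CPM and 80.7, 74.1 and 61.8 CPM. Its groups were close but did not overlap, with LV-NC replicate 1 the highest of its group. The *ATR* log2 fold change was 0.57 ± 0.15 (adjusted p = 0.00956), and the call was lost without LV-NC replicate 2 (adjusted p = 0.0561) or replicate 3 (adjusted p = 0.0543), or when libraries were scaled by their size alone (adjusted p = 0.0642). An antisense annotation, AC109992.1, covers 16.4% of the *ATR* exon bases. *CHEK1*, the effector kinase of ATR, was at 24.3, 44.2 and 41.3 CPM in LV-NC and 31.6, 27.8 and 26.99 CPM in the LV-ATF7-labeled libraries. It was lowest in LV-NC replicate 1, and the 3 LV-ATF7-labeled libraries lay between it and LV-NC replicates 2 and 3. With it the log2 fold change was -0.34 ± 0.21 (adjusted p = 0.186), and without it -0.59 ± 0.10 (adjusted p = 7.32e-06). *CHEK2*, the effector kinase of ATM, was at 12.6, 19.8 and 14.8 CPM and 12.95, 15.3 and 14.3 CPM. Only LV-NC replicate 2 stood out among these, on the high side, and the log2 fold change was -0.15 ± 0.19 (adjusted p = 0.496). *ATRIP*, the partner that carries ATR to DNA, and *TOPBP1*, its activator, had log2 fold changes of -0.07 and 0.11, with overlapping groups. *TREX1* shares 27.9% of the *ATRIP* exon bases on the same strand.

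Genes of the BRCA1 and BRCA2 complexes split in direction, with 2 of 6 higher and 2 of 6 lower. *BRCA1*, a ubiquitin ligase subunit that directs repair toward recombination, had 22.4, 35.2 and 30.97 CPM in LV-NC and 29.1, 24.6 and 22.51 CPM in the LV-ATF7-labeled libraries. The lowest value was again that of LV-NC replicate 1, just under LV-ATF7 replicate 3, and the log2 fold change was -0.22 ± 0.18 (adjusted p = 0.323). *BARD1*, the obligate partner of BRCA1 in that ligase, had 13.3, 21.4 and 21.7 CPM and 10.7, 8.77 and 7.63 CPM. Its groups did not overlap, and it fell 2.08-fold (log2 fold change -1.06 ± 0.23, adjusted p = 0.00348). *PALB2*, which links BRCA1 to BRCA2, had 15.6, 17.04 and 15.6 CPM in LV-NC, where replicate 1 did not stand apart, and 44.49, 44.6 and 38.6 CPM in the LV-ATF7-labeled libraries. The 2 sets of values were well separated, with a log2 fold change of 1.40 ± 0.11 (adjusted p = 2.14e-05) and 1.36 ± 0.11 without LV-NC replicate 1. *BRCA2*, which acts at the exposed strand, had 4.23, 15.6 and 16.6 CPM in LV-NC and 16.02, 13.9 and 11.4 CPM in the LV-ATF7-labeled libraries. Replicate 1 of LV-NC was far below the other 5 libraries, and the difference turned from 0.18 ± 0.43 with it to -0.24 ± 0.14 without it, with neither past the threshold (adjusted p = 0.725 and 0.104). *BRIP1*, the helicase partner of BRCA1, had 7.87, 11.48 and 10.999 CPM and 7.65, 7.49 and 6.03 CPM. Here LV-NC replicate 1 was just above the highest LV-ATF7-labeled library, and the log2 fold change of -0.52 ± 0.19 was barely past the threshold (adjusted p = 0.0425). Leaving out any 1 library other than LV-NC replicate 1 ended that call, with adjusted p-values of 0.0736 to 0.141. *RAD52*, which anneals single strands, had 13.1, 12.9 and 12.1 CPM and 21.8, 19.52 and 18.7 CPM. Its LV-NC libraries were close together and below all 3 of the others (log2 fold change 0.66 ± 0.12, adjusted p = 0.00191).

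Genes of strand exchange, the step that pairs the broken strand with its copy, moved in opposite directions within 1 complex. *RAD51C* had 18.95, 30.7 and 26.9 CPM in LV-NC and 15.6, 13.8 and 15.6 CPM in the LV-ATF7-labeled libraries. It fell 1.70-fold with no overlap of the groups (log2 fold change -0.77 ± 0.19, adjusted p = 0.00669). *XRCC3*, its partner in the CX3 complex, had 19.8, 28.3 and 26.2 CPM and 38.52, 38.7 and 42.97 CPM and was higher in every LV-ATF7-labeled library (log2 fold change 0.69 ± 0.15, adjusted p = 0.00331). The gene *KLC1* covers 76.7% of the *XRCC3* exon bases on the opposite strand, and whether counting used strand is not given in the sources used here. *RAD51D*, a subunit of the BCDX2 complex, had 19.9, 22.2 and 21.4 CPM and 38.8, 40.1 and 40.4 CPM. Its values were tight in both groups and did not overlap (log2 fold change 0.91 ± 0.10, adjusted p = 0.000106). *XRCC2*, the partner of RAD51D, ranged from 3.16 to 6.60 CPM in LV-NC and from 7.02 to 7.98 CPM in the LV-ATF7-labeled libraries, with no overlap but an adjusted p of 0.108. *RAD51AP1*, which stimulates strand invasion, had 9.10, 27.99 and 25.99 CPM and 6.25, 7.49 and 7.13 CPM. Replicates 2 and 3 of LV-NC were high, replicate 1 was near the LV-ATF7-labeled libraries, and the log2 fold change was -1.59 ± 0.38 (adjusted p = 0.00635).

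Among the RAD54 translocases, which remodel DNA during strand exchange, *RAD54L* had 2.20, 6.76 and 6.95 CPM in LV-NC and 4.24, 3.87 and 2.76 CPM in the LV-ATF7-labeled libraries. Within LV-NC, replicate 1 was the lowest library of all and replicates 2 and 3 the highest, and the log2 fold change of -0.54 ± 0.41 did not pass (adjusted p = 0.268). *RAD54B* was the member with the fewest reads, at 1.02, 2.36 and 2.37 CPM and 1.005, 0.918 and 0.608 CPM. LV-NC replicate 1 lay just above LV-ATF7 replicate 1, and the log2 fold change was -1.17 ± 0.40 (adjusted p = 0.0296). The call was lost without any 1 library other than LV-NC replicate 1 (adjusted p-values of 0.0578 to 0.111). *FSBP* shares 59.1% of the *RAD54B* exon bases on the same strand, and *LRRC41* covers 25.1% of those of *RAD54L* on the other.

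In the Fanconi core complex, the ubiquitin ligase of the pathway, 2 of 7 genes rose and 1 of 7 fell. *FANCF*, an adaptor subunit, had 13.1, 14.8 and 15.6 CPM in LV-NC and 31.1, 33.54 and 31.52 CPM in the LV-ATF7-labeled libraries. All 3 of the latter lay well above every LV-NC value, with a log2 fold change of 1.14 ± 0.12 (adjusted p = 7.37e-05). *FANCC* had 32.4, 28.6 and 32.6 CPM and 52.2, 50.8 and 58.8 CPM, again with no overlap (log2 fold change 0.79 ± 0.11, adjusted p = 0.000309). *FANCM*, the translocase that recognizes stalled forks and anchors the complex, went the other way. It had 15.47, 21.02 and 23.2 CPM in LV-NC and 10.8, 11.2 and 10.3 CPM in the LV-ATF7-labeled libraries, and fell 1.85-fold (log2 fold change -0.88 ± 0.17, adjusted p = 0.00218). *FANCL*, the catalytic subunit, was the only member over 1.5-fold higher in LV-NC replicate 1 than in replicates 2 and 3. It had 27.2, 14.05 and 16.03 CPM in LV-NC and 26.51, 25.8 and 25.4 CPM in the LV-ATF7-labeled libraries. Replicate 1 of LV-NC was above every other library, and the log2 fold change was 0.44 ± 0.23 with it (adjusted p = 0.129) and 0.77 ± 0.11 without it (adjusted p = 9.77e-07). *FANCA*, *FANCE* and *FANCG* had log2 fold changes of -0.24, 0.23 and 0.33, with overlapping groups and adjusted p-values of 0.485, 0.116 and 0.292. Opposite-strand genes cover 23.6% of the exon bases of *FANCA*, 19.7% of *FANCL* and 11.3% of *FANCF*.

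In the Fanconi ubiquitination step, the conjugating enzyme was called lower and its substrates were not called. *UBE2T*, that enzyme, had 17.2, 55.4 and 52.9 CPM in LV-NC and 16.6, 16.3 and 16.1 CPM in the LV-ATF7-labeled libraries. In this gene LV-NC replicate 1 lay just above the LV-ATF7 group while replicates 2 and 3 lay far above both, and the log2 fold change was -1.36 ± 0.38 (adjusted p = 0.0137). That call was lost without LV-ATF7 replicate 3 (adjusted p = 0.0620). *FANCD2*, the central substrate, had 5.94, 22.4 and 22.4 CPM and 14.1, 13.6 and 15.3 CPM. The LV-ATF7-labeled libraries fell between LV-NC replicate 1 below and replicates 2 and 3 above, and the log2 fold change was -0.24 ± 0.42 with all libraries (adjusted p = 0.636) and -0.66 ± 0.11 without LV-NC replicate 1 (adjusted p = 7.23e-06). *FANCI*, its partner, showed the same order of libraries, at 21.9, 49.7 and 48.3 CPM and 39.8, 37.3 and 41.3 CPM. Its log2 fold change was -0.02 ± 0.28 (adjusted p = 0.956), and -0.33 ± 0.09 without LV-NC replicate 1 (adjusted p = 0.00132).

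Of the helicases and nucleases that take recombination intermediates apart, 1 of 5 was called. *MUS81*, a nuclease subunit, ranged from 29.3 to 34.6 CPM in LV-NC and from 38.2 to 45.3 CPM in the LV-ATF7-labeled libraries, without overlap (log2 fold change 0.38 ± 0.11, adjusted p = 0.0169). Its adjusted p was 0.0681 without LV-NC replicate 2, 0.0977 without LV-NC replicate 3, 0.0557 without LV-ATF7 replicate 2 and 0.0595 without LV-ATF7 replicate 3, and 0.142 under library size scaling alone. *BLM*, the helicase mutated in Bloom syndrome, had 3.64, 16.46 and 15.7 CPM in LV-NC and 7.37, 7.29 and 7.13 CPM in the LV-ATF7-labeled libraries. As for *FANCD2*, the LV-ATF7-labeled libraries sat between LV-NC replicate 1 and the other two, and the log2 fold change was -0.72 ± 0.47 (adjusted p = 0.208) or, without replicate 1, -1.17 ± 0.13 (adjusted p = 1.10e-08). *WRN*, the helicase mutated in Werner syndrome, *EME1*, the partner of MUS81, and *GEN1*, a resolvase, had log2 fold changes of -0.28, -0.04 and 0.16, and their groups overlapped. Opposite-strand genes cover 14.1% of the exon bases of *MUS81* and 16.4% of those of *EME1*.

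Within LV-NC, replicate 1 was low for a large part of the members. Over 1.5-fold lower values than the mean of replicates 2 and 3 were found for 16 of 39 members (41.0%), beside 11.5% of all genes tested, and a value over 1.5-fold higher for 1 member, *FANCL* at 1.81-fold, beside 11.9% of all genes. LV-NC replicate 1 was the lowest of the 6 libraries for 19 members (48.7%), beside 22.7% of all genes. It was the highest of the 6 for 2 members (5.13%), *FANCL* and *WRN*, beside 21.3% of all genes. With 1 library against 2 of the same group there is no replicate check and no test. The widest gaps were those of *BLM* (4.32-fold lower), *BRCA2* (3.73-fold), *FANCD2* (3.72-fold), *UBE2T* (3.14-fold), *RAD54L* (3.02-fold) and *EXO1* (3.02-fold). *RAD51AP1*, *FANCA*, *EME1*, *FANCI*, *RAD54B*, *FANCG*, *XRCC2*, *CHEK1*, *BARD1* and *RAD51C* followed at between 1.51-fold and 2.94-fold. Replicates 2 and 3 differed from each other by a median of 0.10 on the log2 scale over the members, whereas replicate 1 differed from their mean by a median of -0.51, beside 0.01 over all genes. In the 24 S phase and G2/M markers the same median was -1.97, with 18 of 24 over 1.5-fold lower. The part of those markers in the members' values was not tested. At the other end, *ATM*, *RBBP8*, *RAD52*, *FANCC*, *FANCE*, *PALB2*, *RAD51D* and *TOPBP1* were within 0.14 of the mean of replicates 2 and 3.

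By role, the depth of the gap varied. All 3 genes of the Fanconi ubiquitination step were over 1.5-fold lower in LV-NC replicate 1, with a median difference of -1.65 on the log2 scale, as were 5 of 7 strand exchange genes (median -0.96). In contrast, 1 of 5 resection genes (median -0.15) and 1 of 6 checkpoint genes (median -0.21) were that much lower. For the BRCA1 and BRCA2 complexes it was 2 of 6 (median -0.53), for the core complex 2 of 7 (median -0.21), and for helicases and resolution 2 of 5 (median -0.51). Summed over all 39 members, LV-NC replicate 1 had 847 CPM, replicates 2 and 3 had 1116 and 1095 CPM, and the LV-ATF7-labeled libraries had 1154, 1097 and 1044 CPM.

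Without LV-NC replicate 1, more members were called, as were more of all genes, and most of the members' gain was downward. Of 39 members, 12 (30.8%) were higher, beside 39.9% of the 12495 genes tested in that fit, and 17 (43.6%) were lower, beside 40.2%. With all libraries the shares were 25.6% and 20.5% of the members, beside 34.7% and 32.9% of all genes. The median over the members moved to -0.21, with that over all genes at -0.01. No call was lost: *UBE2T* was at -1.75 ± 0.10, *RAD51AP1* at -1.97 ± 0.12, *BARD1* at -1.28 ± 0.13 and *RAD51C* at -0.96 ± 0.11. The members that gained one were *RBBP8* and *FANCL* on the higher side and *NBN*, *CHEK1*, *CHEK2*, *BRCA1*, *RAD54L*, *FANCA*, *FANCD2*, *FANCI* and *BLM* on the lower side. *BLM* was the largest of these, and *CHEK2* the nearest to the threshold, at -0.31 ± 0.13 (adjusted p = 0.0357). *BRCA1* came out at -0.40 ± 0.11 (adjusted p = 0.00236) and *FANCA* at -0.57 ± 0.10 (adjusted p = 1.93e-05). Beside these, the S phase and G2/M markers gave 17 lower and 5 higher of 24, in place of 11 lower and 4 higher with all libraries.

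**Figure D2:**
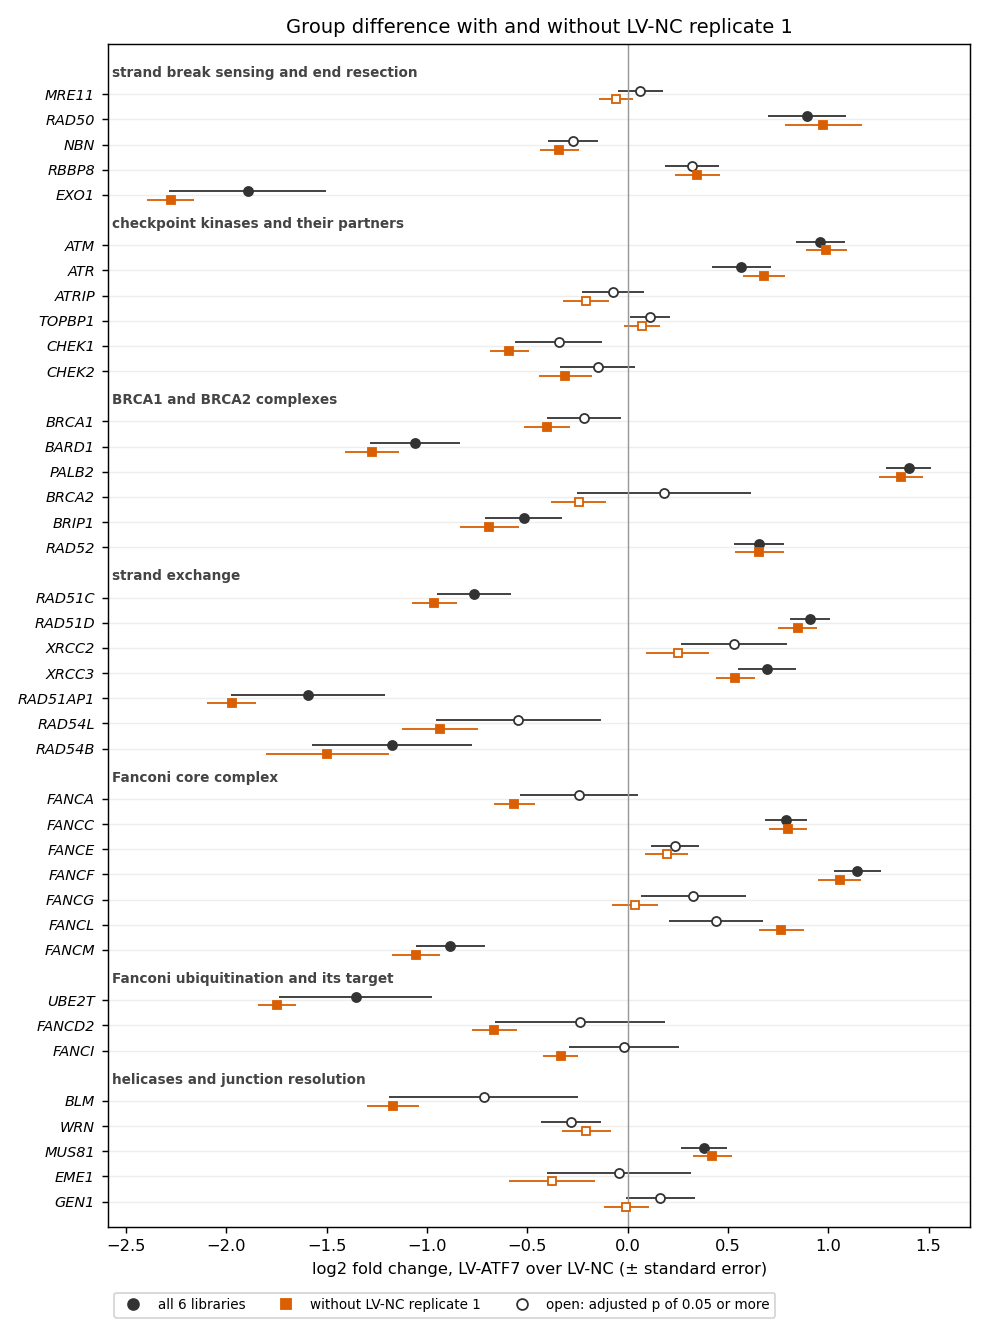
Log2 fold change of each member, the LV-ATF7-labeled libraries over LV-NC, with its standard error, from all 6 libraries (circles) and without LV-NC replicate 1 (squares). Filled symbols have an adjusted p under 0.05. The squares lie left of the circles for *BLM*, *FANCD2*, *UBE2T* and *EXO1*, and the symbols nearly coincide for *PALB2*, *ATM* and *RAD52*.

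Ratios of partner genes within a library do not depend on how libraries are scaled. Of 14 pairs, 7 had groups that did not overlap, each with p = 0.10 by an exact two-sided permutation test, the smallest p that 3 against 3 libraries allow, and 0.20 after Benjamini-Hochberg adjustment over the 14. The largest difference was in *EXO1* over *RBBP8*, whose log2 ratio was -1.76, -0.0538 and -0.00433 in LV-NC and -2.75, -2.61 and -2.58 in the LV-ATF7-labeled libraries. There, too, replicate 1 of LV-NC was nearer the other group. *XRCC3* over *RAD51C*, the subunits of the CX3 complex, was 0.06, -0.12 and -0.04 in LV-NC and 1.30, 1.49 and 1.46 in the LV-ATF7-labeled libraries. In this pair LV-NC replicate 1 was close to replicates 2 and 3, and the groups were 1.45 apart. *KLC1* covers 76.7% of the *XRCC3* exon bases on the opposite strand, and its part in this ratio was not tested. *BARD1* over *BRCA1* went from -0.75, -0.72 and -0.51 to -1.45, -1.49 and -1.56, also with the 3 LV-NC libraries together. *RAD54L* over *RAD54B* was 1.11, 1.52 and 1.55 against 2.08, 2.08 and 2.18. Within the MRN complex, the mean of *RAD50* over *MRE11* was 0.82 higher and that of *NBN* over *MRE11* 0.35 lower (difference -0.35) in the LV-ATF7-labeled libraries. Ratios with *RAD50* and *RAD54B* carry a similar limit, since 79.7% and 59.1% of their exon bases are shared on the same strand. *ATR* over *ATM* differed by -0.39. The other 7 pairs overlapped: *CHEK1* over *CHEK2*, *ATRIP* over *ATR*, *PALB2* over *BRCA2*, *FANCI* over *FANCD2*, *EME1* over *MUS81*, *BLM* over *WRN* and *XRCC2* over *RAD51D*. *FANCI* over *FANCD2*, the ubiquitinated pair, was 1.88, 1.15 and 1.11 in LV-NC and 1.495, 1.45 and 1.44 in the LV-ATF7-labeled libraries, a difference of 0.08 (p = 1 by the exact permutation test).

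**Figure D3:**
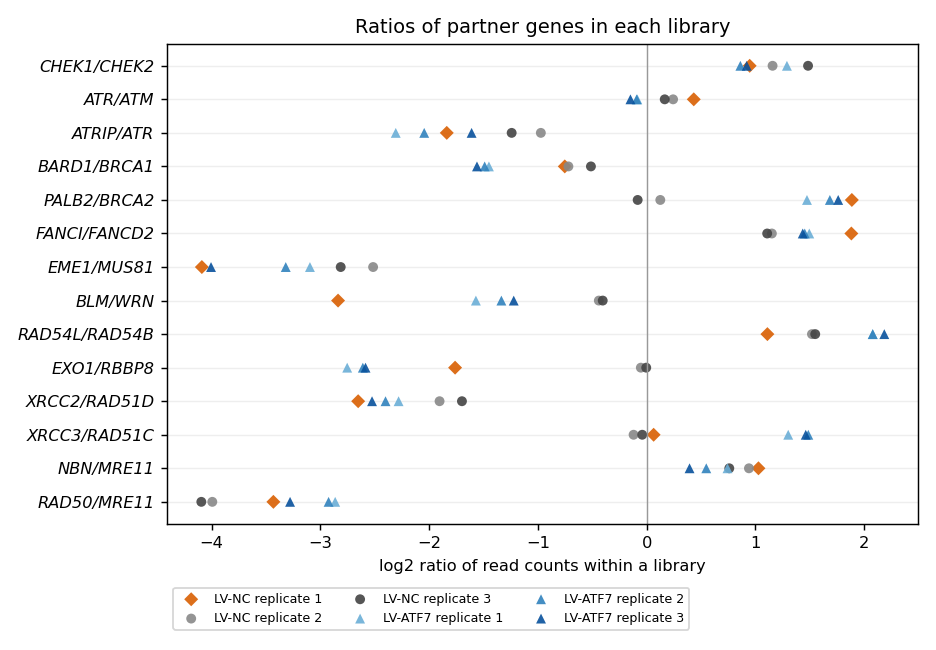
Log2 ratio of the counts of 14 pairs of partner genes in each library, with diamonds for LV-NC replicate 1, circles for LV-NC replicates 2 and 3 and triangles for the LV-ATF7-labeled libraries. For *XRCC3*/*RAD51C* and *BARD1*/*BRCA1* the 3 LV-NC symbols lie together and apart from the triangles, while for *BLM*/*WRN* and *PALB2*/*BRCA2* the diamond lies on the far side of the triangles.

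Levels between genes were compared per kilobase of merged exon. In LV-NC, *UBE2T* was the highest member at 25.3 ± 12.9 CPM per kb (SD, n = 3), followed by *NBN* at 16.8 ± 1.46 and *TOPBP1* at 10.3 ± 0.364. The spread of *UBE2T* overlapped that of *NBN*, with LV-NC replicate 1 low. The lowest were *RAD54B* at 0.361 ± 0.147, *RAD50* at 0.395 ± 0.0485 and *BRCA2* at 0.989 ± 0.559 CPM per kb. Same-strand annotations share 59.1% of the *RAD54B* and 79.7% of the *RAD50* exon bases. How reads in shared bases were counted is not known, so the low rank of these 2 genes is uncertain. In the LV-ATF7-labeled libraries, *NBN* was highest at 13.9 ± 1.88, followed by *TOPBP1* at 11.1 ± 1.08, *FANCF* at 10.9 ± 0.436, *FANCL* at 10.7 ± 0.236 and *FANCE* at 10.7 ± 0.983 CPM per kb, the last 4 within each other's spread. *UBE2T* stood at 9.88 ± 0.135 CPM per kb there.

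Other recombination and Fanconi genes that are not among the 39 were also split: 13 of 46 tested were higher (28.3%, beside 34.7% of all genes) and 13 lower (28.3%, beside 32.9%), with a median log2 fold change of -0.13. Without LV-NC replicate 1 the counts were 13 higher and 21 lower, with a median of -0.15. All genes tested in that fit gave 39.9% higher and 40.2% lower. *RAD51B*, a further BCDX2 subunit, was at 2.62, 2.52 and 2.43 CPM in LV-NC and 10.21, 10.8 and 10.01 CPM in the LV-ATF7-labeled libraries (log2 fold change 2.03 ± 0.15, adjusted p = 1.59e-05). It was higher in every LV-ATF7-labeled library. *BRCC3*, a deubiquitinase that works with BRCA1, had a log2 fold change of 1.42 ± 0.15, against -1.60 ± 0.13 for *SWI5*, a strand exchange cofactor, and -1.47 ± 0.16 for *SLX4*, the scaffold of resolving nucleases. LV-NC replicate 1 was over 1.5-fold lower for 12 of these 46 genes. *CENPS*, *MND1*, *SLX1A* and *SLX1B* were not analysed here.

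Checkpoint partners and targets gave 3 higher (21.4%, beside 34.7% of all genes) and 6 lower (42.9%, beside 32.9%) of 14 (median -0.10). Without LV-NC replicate 1 it was 4 and 7 (median -0.25). *CLSPN*, the adaptor through which ATR activates CHK1, was at 14.9, 32.03 and 30.6 CPM and 5.08, 5.61 and 5.09 CPM (log2 fold change -2.29 ± 0.29, adjusted p = 0.000224). Its groups did not overlap. *CDC25C* and *CDC25B*, phosphatases that start mitosis and are held back by checkpoint kinases, had log2 fold changes of -2.25 ± 0.54 and 1.79 ± 0.40, and *HUS1*, a subunit of the checkpoint clamp, -1.10 ± 0.12. In *CDC25C* and *CDC25B* LV-NC replicate 1 was 5.02-fold and 3.33-fold below the mean of replicates 2 and 3. Without it, *CDC25C* was at -2.72 and *CLSPN* at -2.59.

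Among the other repair routes, nonhomologous end joining gave 8 higher (42.1%) and 4 lower (21.1%) of 19 (median 0.33). All genes tested gave 34.7% higher and 32.9% lower. Without LV-NC replicate 1 the end joining counts were 11 and 6. *SHLD2*, a shieldin subunit that limits resection, rose 3.11-fold from 9.35 ± 0.309 to 29.1 ± 0.934 CPM (SD, n = 3; adjusted p = 1.14e-05). *PRKDC*, the DNA-dependent protein kinase, was at 319 ± 61.3 and 564 ± 19.9 CPM. *APLF* and *PAXX*, accessory factors of the ligation step, had log2 fold changes of 1.13 and 0.81. The shieldin genes *SHLD3* and *MAD2L2*, named here after their values were seen, went the other way from *SHLD2*, at -0.77 ± 0.23 (adjusted p = 0.0183) and -0.79 ± 0.21 (adjusted p = 0.00956). Base excision and single-strand break repair gave 9 higher (45%) and 7 lower (35%) of 20 (median 0.24), or 11 and 9 without LV-NC replicate 1. Its largest changes were the rises of the glycosylase genes *MUTYH*, *NTHL1*, *NEIL1* and *UNG*, by 1.90, 1.87, 1.59 and 1.22 on the log2 scale. The list's other glycosylase genes, named here after their values were seen, were split. *OGG1*, *MBD4* and *TDG* were called lower, at -1.19, -0.71 and -0.56. *MPG* and *SMUG1* were called higher, at 0.77 and 0.34, and *NEIL2* and *NEIL3* were not called. *MUTYH* was sparse, at 0.428, 0.577 and 0.405 CPM in LV-NC and 2.29, 1.58 and 1.49 CPM in the other group. Nucleotide excision repair gave 8 higher (42.1%) and 5 lower (26.3%) of 19 (median 0.04), or 8 and 7 without LV-NC replicate 1. It was led by *ERCC6* at -1.41, *CUL4A* at 1.14, *ERCC8* at 1.13 and *UVSSA* at 0.87. Mismatch repair gave 4 of 7 higher (57.1%, median 0.37), with *PMS1* at 1.63, *MLH3* at 0.64 and *PMS2* at 0.62. Without LV-NC replicate 1 that list gave 5 higher and 2 lower. In each of these 4 lists the median difference of LV-NC replicate 1 from replicates 2 and 3 was between -0.21 and -0.06.

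Proliferation genes moved with LV-NC replicate 1 as well as with the groups. S phase and G2/M markers gave 4 higher (16.7%, beside 34.7% of all genes) and 11 lower (45.8%, beside 32.9%) of 24 (median -1.09). *PCNA*, the sliding clamp of replication, fell from 171, 252 and 244 CPM to 77.6, 75.7 and 78.52 CPM without overlap (log2 fold change -1.52 ± 0.15, adjusted p = 6.30e-05), whereas *MCM3*, a subunit of the replicative helicase, rose by 1.92 ± 0.10. The other markers called higher, named after their values were seen, were *MCM2*, *MCM5* and *MCM6*, at 0.90, 1.25 and 0.53. *MCM4* was called lower, at -0.50, and *MCM7* was not called. *BUB1*, *AURKB* and *CCNE2* had log2 fold changes of -2.00, -1.66 and -1.65. The *AURKB* groups overlapped, at 27.0, 167 and 153 CPM in LV-NC and 35.3, 34.5 and 40.4 CPM in the LV-ATF7-labeled libraries. *BUB1* was at 22.4, 117 and 110 CPM and 21.1, 20.2 and 21.1 CPM, with LV-NC replicate 1 just above the other group. *MKI67* passed with -1.63 ± 0.55 (adjusted p = 0.0282) and *TOP2A* did not, with -1.39 ± 0.55 (adjusted p = 0.0525). E2F, DREAM and MuvB regulators set when replication and repair genes are transcribed. Of 19 tested, 7 were higher (36.8%) and 5 lower (26.3%), with a median of 0.29. Without LV-NC replicate 1 it was 7 higher and 8 lower, with the median at -0.02. *MYBL2*, the activating subunit of MuvB, was at 25.3, 215 and 211 CPM and 26.2, 28.1 and 27.98 CPM. LV-NC replicate 1 fell below the LV-ATF7-labeled libraries there. *E2F7*, a repressor, was at -1.70, *E2F5* at 1.96 and *RBL2*, the DREAM pocket protein, at 1.83 on the log2 fold change scale.

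**Figure D4:**
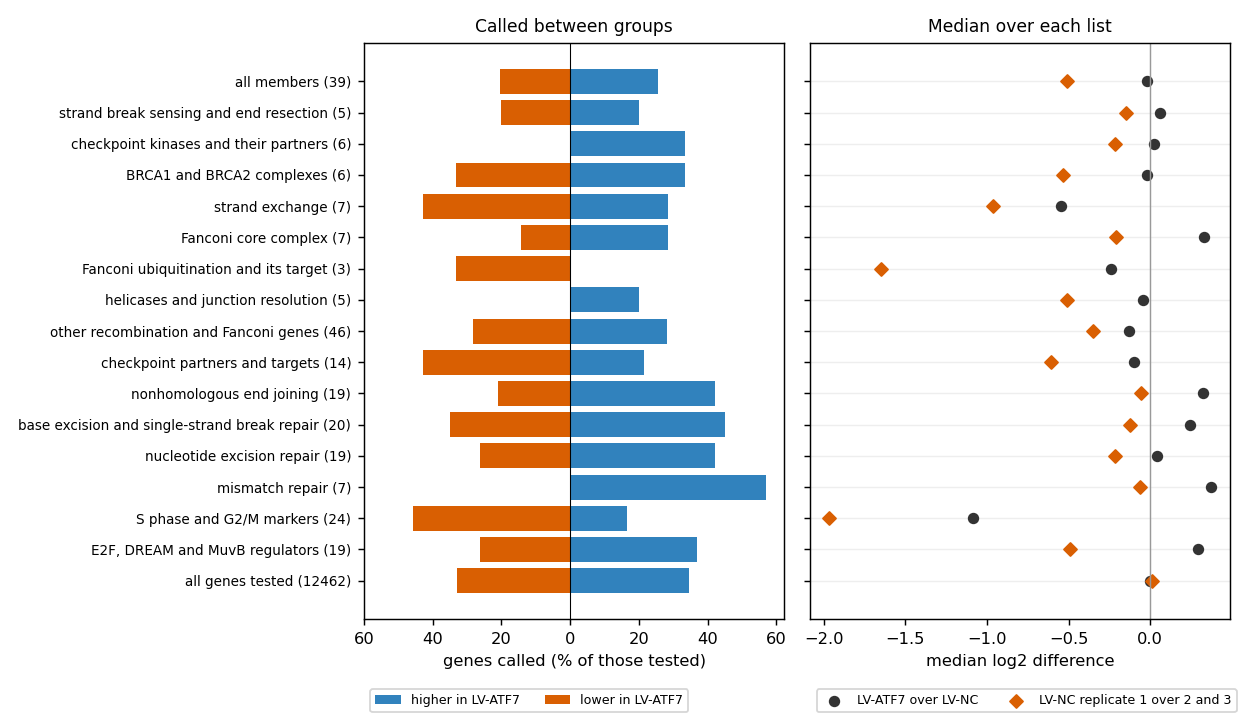
Left, share of the genes of each list called higher (right of 0) or lower (left of 0) in the LV-ATF7-labeled libraries, with the number of genes tested in parentheses. Right, median log2 difference over each list between the groups (circles) and between LV-NC replicate 1 and replicates 2 and 3 (diamonds). The widest diamond offset is that of the S phase and G2/M markers at -1.97, and that of the Fanconi ubiquitination genes is -1.65.

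RefSeq promoter windows were read for 35 of the 39 members, all but *NBN*, *WRN*, *RAD54B* and *FANCI*, and made 48 windows since some genes have more than 1 start. An E2F word was in 7 of the 48 windows (14.6%), beside 3.31% of all 35116 windows in the table and 4.75% of the windows of genes tested here. The 7 genes were *EXO1*, *FANCA*, *FANCC*, *FANCD2*, *GEN1*, *TOPBP1* and *XRCC2*, of which *EXO1* fell, *FANCC* rose and the other 5 were not called. A whole CRE was in 4 windows (8.33%, beside 1.85% and 2.79%) of 3 genes, *EXO1*, *RAD51C* and *XRCC2*. *RAD51C* was counted in both of its windows. *EXO1* and *RAD51C* were lower in the LV-ATF7-labeled libraries, and *XRCC2* was not called. The short CRE was in 10 windows (20.8%, beside 7.98% and 10.4%), the ETS word in 13 (27.1%, beside 10.3% and 16.6%), and the CCAAT box in 23 (47.9%, beside 34.6% and 34.7%). The cell cycle homology region was in 5 windows (10.4%, beside 16.4% and 11.8%), in *ATM*, *BRIP1*, *FANCC*, *GEN1* and *UBE2T*. The NRF1 motif was in 1 window, of *RBBP8* (2.08%, beside 1.24% and 1.88%). These shares describe the letters of the windows, and the absence of a match says only that the letters are not in the window.

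**Figure D5:**
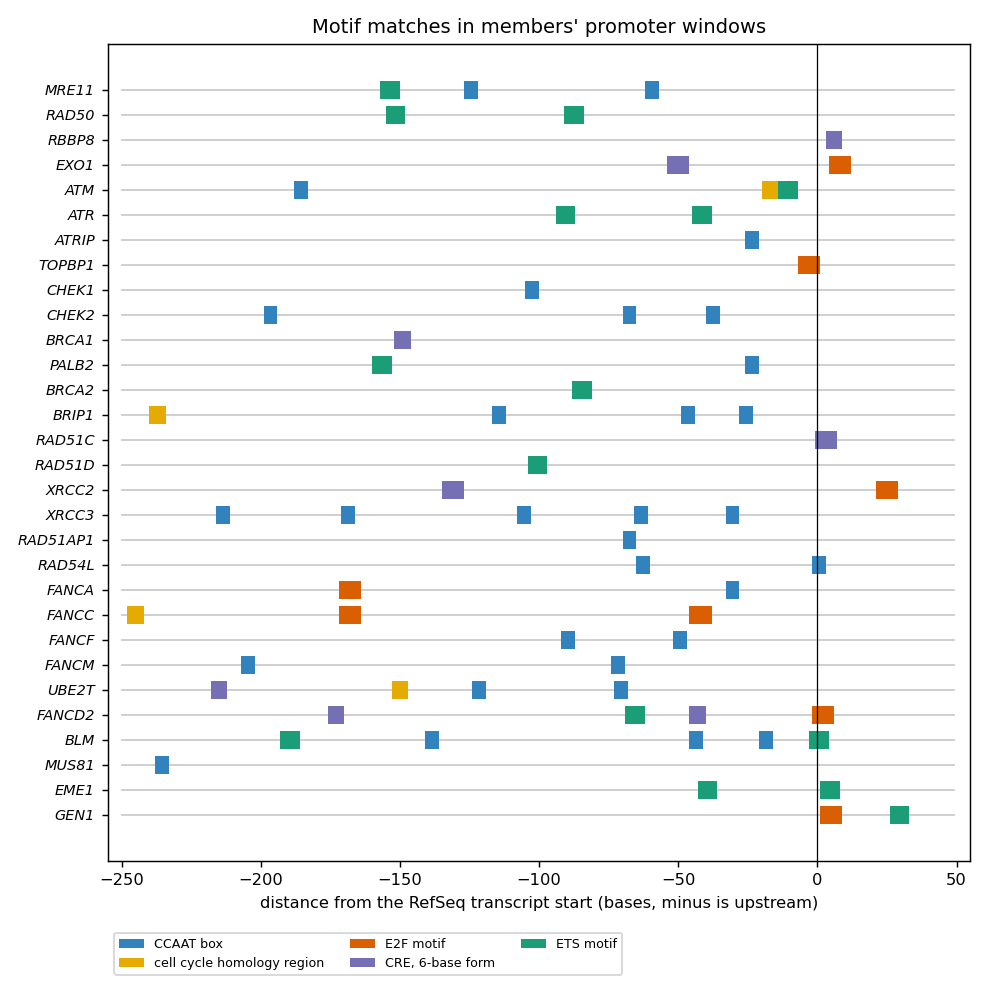
Motif matches on either strand in the promoter window of each member that had at least 1 match, in the window listed first for the gene. The horizontal axis is the distance in bases from the transcript start, and colors name the motif. CCAAT boxes recur in *XRCC3*, *BLM*, *BRIP1* and *CHEK2*, and whole CREs are drawn as their short form.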

How the data were processed

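Poly(A)-enriched RNA libraries of HaCaT cells (3 LV-NC, 3 LV-ATF7) were read from the deposited gene table, whose raw counts per gene and library the authors made on GRCh38. The aligner, the counter and the use of strand are not given in the sources used here. The authors' FPKM and comparison columns (fold changes, p-values) were not used. The smallest sum of counts for any gene was 51. Genes that passed filterByExpr of edgeR 4.0.16 in R 4.3.3 (12462 of 12499) were scaled by TMM and fitted by the quasi-likelihood test, LV-ATF7 against LV-NC, with Benjamini-Hochberg adjustment and a threshold of 0.05. CPM are TMM-scaled. Log2 fold changes between groups are those of the fit at its default setting, and a prior count of 2 was used for log2 CPM only. Their standard errors were derived from the test, as the absolute log2 fold change divided by the square root of its F statistic. LV-NC replicate 1 was compared with the mean log2 CPM of replicates 2 and 3, with a difference past 1.5-fold named but not tested. Replicate libraries differed by more than sampling noise in every pair (chi-square per gene of 2.86 to 76.2). Exon lengths and overlaps came from GENCODE release 29, promoters from RefSeq. On simulated data drawn from the genes' means and dispersions, the fit called 150 of 200 changed genes and 14 unchanged ones. The unchanged ones were 8.54% of its calls, above the 0.05 threshold. Only 200 of 12462 genes were changed and no library was set apart, so the simulation does not check the fit under the wide changes seen here.

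The 39 members and all gene lists were chosen with earlier results of these data known. Values in every library are given for the 8 largest rises and 8 largest falls among called members, for 11 members the rule names whatever their change, for the 5 with the largest departure of LV-NC replicate 1 and for *FANCL*, added after its values were seen; of each other list up to 4 called genes with the largest change are named, with *MKI67*, *TOP2A*, *PCNA* and *ATF7*. Some genes that the rule names are not reported here. The 6 promoters printed were picked after values were seen. Alternatives were DESeq2 1.42.0, limma 3.58.1 voom with sample quality weights, other scalings and filters, a replicate block, and leaving out each library.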

Additional observations from a re-analysis of the deposited data

How the results depend on the processing

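The 18 members called (10 higher, 8 lower) kept their counts and calls under DESeq2, upper quartile scaling, no filter on low counts and at least 10 counts in every library, and no called member changed sign under any alternative. limma voom with sample quality weights, which gave LV-NC replicate 1 a weight of 0.0948, called 30 members, 16 of them lower. It also called 10391 of all 12462 genes tested, 5124 of them lower. Leaving out each library in turn gave 14 to 29 called, 8 to 12 higher and 5 to 17 lower: 29 called with 17 lower without LV-NC replicate 1, and 5 lower without LV-ATF7 replicate 3. Over all genes, leaving out each library gave 7290 to 10011 called. Of these, 5022 of 12495 tested were lower without LV-NC replicate 1, and 3592 of 12496 without LV-ATF7 replicate 3. *BRIP1* and *RAD54B* lost their calls in 5 of these 6 fits, *MUS81* in 4, *ATR* in 2 and *UBE2T* in 1. A fold of at least 1.5 beside the threshold left 15 called. Under library size only, *ATR* and *MUS81* lost and *NBN* and *WRN* gained a call. The replicate block gave 10 higher and 6 lower, with *BRIP1* and *RAD54B* lost (adjusted p = 0.0729 and 0.0571). In that fit 4266 of all 12462 genes tested were higher and 3944 lower. Deviations of same-numbered libraries correlated at 0.06, -0.02 and 0.06, so the numbers were not taken as pairs. Limits: 3 libraries per group, no stated separate cultures, 1 LV-NC library that stands apart, and 11 members sharing over 10% of their exon bases with another gene. With a fold of 2 in place of 1.5, LV-NC replicate 1 was lower for 12 members in place of 16, and *FANCL*, the 1 higher member, was no longer named. Of the 24 S phase and G2/M markers 15 were called, and 8 or 9 without any 1 library other than LV-NC replicate 1. In shorter promoter windows (150 bases before the start) the cell cycle homology region was in 2 windows and the short CRE in 6. The causes of these shifts were not tested.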
